A study of Mus musculus with 12 samples.

Results

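Interleukins are secreted signalling proteins, and the receptor chains that bind them sit on leukocytes, fibroblasts, endothelial cells and other cells of the vessel wall. The genes described here are the 73 of 30130 listed genes whose symbol begins with Il followed directly by a digit: 28 ligands, 38 receptor chains, 5 antagonists or decoys, 1 antisense RNA and 1 enzyme that carries an interleukin-derived name. RNA was sequenced from whole proximal thoracic aortas of male mice of the strain labelled C56BL/6J. The 7 cPTAA libraries (numbered 2, 3, 4, 6, 7, 9 and 12) came from chronic proximal thoracic aortic aneurysms made with periaortic elastase, a protease that degrades elastic fibres, together with BAPN, an inhibitor of the enzymes that crosslink collagen and elastin. The 5 sham libraries (numbered 1, 5, 8, 10 and 11) came from sham-operated aortas of mice given normal water. Elastase and BAPN could be compared with sham only together, as 1 condition. The series counts each library as an aneurysm or an aorta of its own, without naming animals or batches, so the p-values speak for the spread among these 12 libraries. Ages are not given in the sources used here.

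Interleukin signalling works through chains that are shared between receptors. The IL-1 family signals through receptors with a Toll-like intracellular domain and is held back by a receptor antagonist, decoy receptors and a binding protein. The IL-6 group signals through the shared chain gp130, encoded by Il6st, and the lymphocyte growth factors signal through the common gamma chain, encoded by Il2rg, both by way of JAK kinases and STAT factors. In aneurysmal arteries interleukins are known as products of infiltrating leukocytes and of the wall's own cells.

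The promoters of 4 members are shown because these members mark the range of the results: Il6 and Il7r had the highest fold changes on the log2(value + 1) scale among the ligands and the receptors, and Il2ra and Il15ra are neighbours on chromosome 2 that moved in opposite directions. Sequences are from RefSeq (GRCm38.p6), matched by symbol, and run from 250 bases before to 50 bases after the start of the gene. They are written 5′ to 3′ on the gene's strand, and capitals mark matches to any of 5 motifs. The motifs were GGGANTTTC for NF-kB, TGANTCA for AP-1, TTCNNNGAA for STAT factors, TTGCNNAA for C/EBP and GAGGAAGT for ETS factors, each searched on both strands.
Il6, chr5:30012864-30013163, plus strand: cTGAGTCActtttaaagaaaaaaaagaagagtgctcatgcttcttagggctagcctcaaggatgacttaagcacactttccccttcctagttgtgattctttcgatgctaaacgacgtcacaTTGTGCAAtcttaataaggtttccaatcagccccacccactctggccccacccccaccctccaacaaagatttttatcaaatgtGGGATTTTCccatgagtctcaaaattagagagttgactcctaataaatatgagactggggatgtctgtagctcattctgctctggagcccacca
Il7r, chr15:9529827-9530126, minus strand: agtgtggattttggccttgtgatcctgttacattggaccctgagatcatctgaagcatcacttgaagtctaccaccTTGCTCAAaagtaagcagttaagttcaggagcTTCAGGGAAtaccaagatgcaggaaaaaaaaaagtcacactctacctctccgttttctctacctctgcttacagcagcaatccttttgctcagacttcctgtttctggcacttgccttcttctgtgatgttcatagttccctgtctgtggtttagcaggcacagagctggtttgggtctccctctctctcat
Il2ra, chr2:11642542-11642841, plus strand: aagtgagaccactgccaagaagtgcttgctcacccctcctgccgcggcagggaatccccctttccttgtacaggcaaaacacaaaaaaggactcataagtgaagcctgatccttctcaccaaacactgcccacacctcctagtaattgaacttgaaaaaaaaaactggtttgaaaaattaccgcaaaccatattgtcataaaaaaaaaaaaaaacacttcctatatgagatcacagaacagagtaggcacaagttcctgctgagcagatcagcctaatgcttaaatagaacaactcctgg
Il15ra, the second of 2 listed starts, chr2:11705462-11705761, plus strand: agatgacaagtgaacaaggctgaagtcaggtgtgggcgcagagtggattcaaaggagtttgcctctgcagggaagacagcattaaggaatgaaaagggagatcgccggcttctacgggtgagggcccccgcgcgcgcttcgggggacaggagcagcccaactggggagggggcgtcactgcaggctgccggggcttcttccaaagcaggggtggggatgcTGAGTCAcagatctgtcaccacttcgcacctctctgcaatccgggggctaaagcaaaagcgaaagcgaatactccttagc

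The Il6 promoter held 1 NF-kB match, 1 AP-1 match and 1 C/EBP match. The Il7r promoter held 1 STAT match and 1 C/EBP match, the Il15ra promoter shown 1 AP-1 match, and the Il2ra promoter none of the 5 motifs. The promoter at the first listed Il15ra start, which is not shown, held none of the 5 either. Over all 32851 promoters of this length the NF-kB motif was present in 1.11%, AP-1 in 7.81%, STAT in 8.3%, C/EBP in 10.8% and ETS in 3.2%. Over the 71 promoters of 57 members the shares were 2.82%, 16.9%, 12.7%, 19.7% and 2.82% in the same order. A match is a run of letters and says nothing of binding.

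Of the 73 members, 62 passed the filter on low values and were tested. With limma on log2(value + 1) and Benjamini-Hochberg adjustment over all 21415 tested genes, 26 of the 62 were higher in cPTAA (41.9%) and 2 were lower (3.23%) at an adjusted p below 0.05. Among all tested genes 12.9% were higher and 11.1% were lower. In 21 members every aneurysm lay above every sham library (33.9%), against 8.02% of all tested genes. In 0 members every aneurysm lay below every sham library, against 4.95% of all tested genes. The median log2 fold change was 1.15 over the tested members and -0.05 over all tested genes. By role, 8 of 20 tested ligands, 16 of 35 receptor chains and 2 of 5 antagonists or decoys rose, and both falls were receptor chains. Fewer cells of a type and less RNA per cell cannot be told apart in whole tissue.

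**Figure D1:**
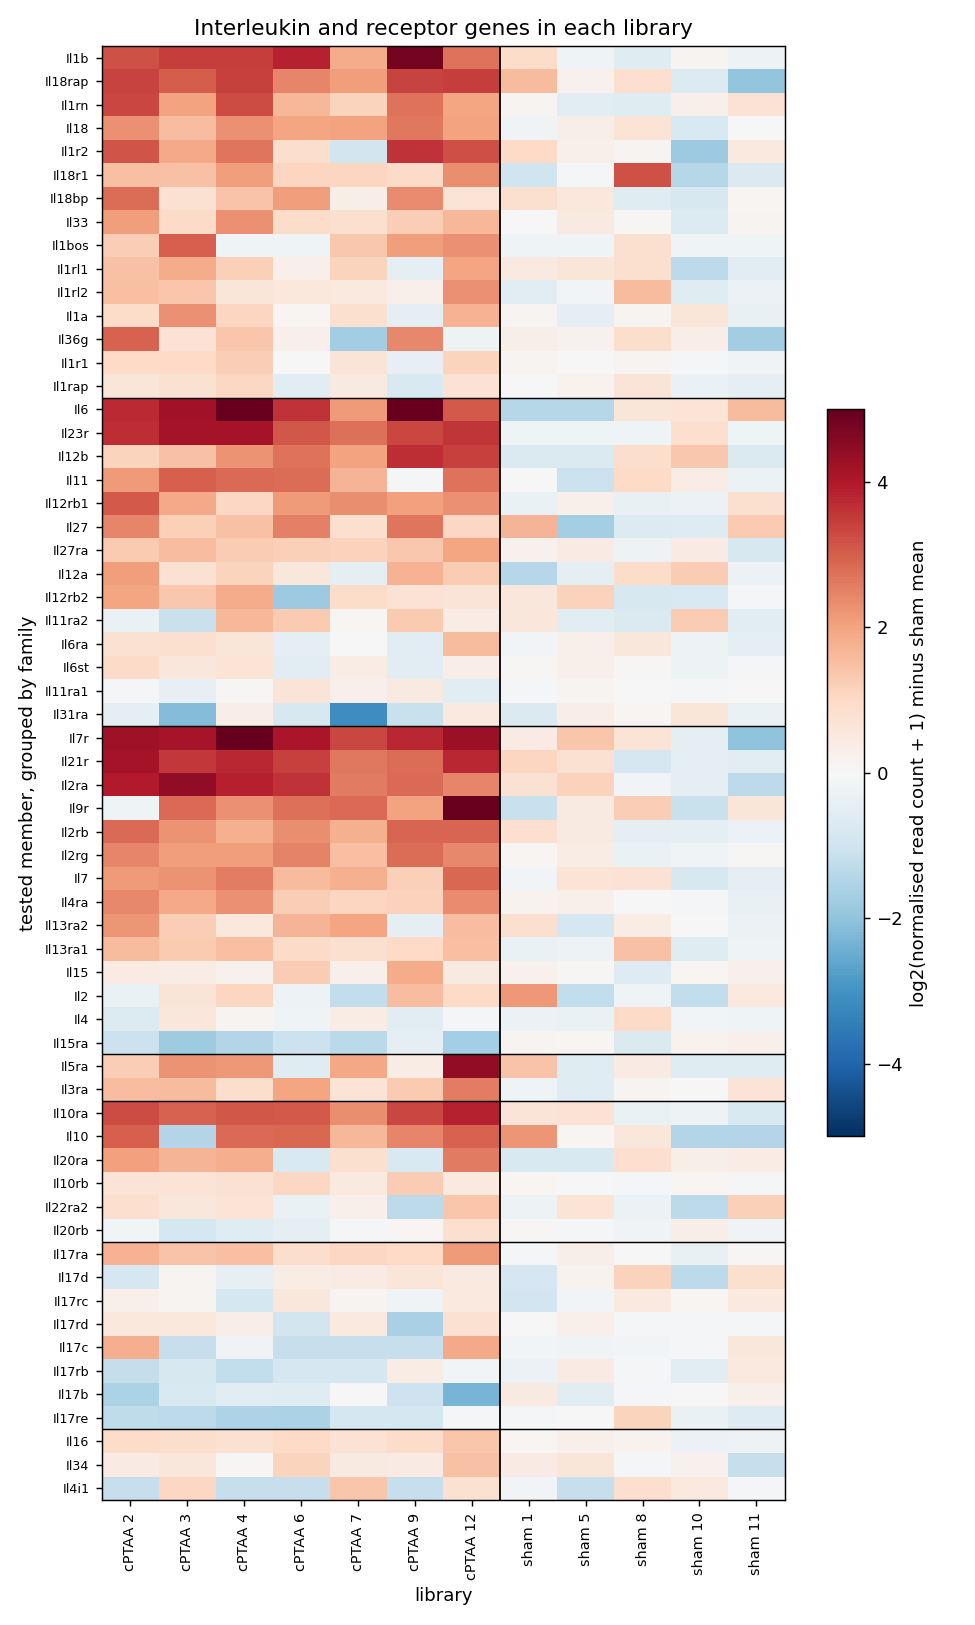
Each row is 1 of the 62 tested members, grouped by family, and each column is a library; colour gives log2(normalised read count + 1) minus the sham mean and is capped at 5 in either direction. The rows of Il1b, Il6, Il7r, Il21r, Il2ra and Il10ra are above the sham mean in all 7 aneurysms, and Il18r1 is highest in sham 8.

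Recovered totals per library ran from 14078885 to 17493428 reads. Values are normalised read counts: whole reads divided by 1 factor per library, so that 1 read was worth 0.8631 to 1.164 units. The tissue held other cell types in unequal amounts. Macrophage markers were higher in cPTAA for 11 of 12 genes (summed level 35502 to 65562 against 6715.9 to 26369 in sham), T and NK cell markers for 11 of 12 (541.78 to 1875.9 against 45.391 to 342.63) and B cell markers for 7 of 8 (154.49 to 3630.2 against 29.097 to 130.39). Fibroblast markers were higher for 3 of 8 and lower for 1, with summed levels of 51167 to 70442 against 24436 to 46829. Dendritic cell markers were higher for 4 of 8 and lower for 1 (936.67 to 1659.6 against 506.28 to 639.9). Brown adipocyte markers were lower for 9 of 10 (2139.5 to 46936 against 35875 to 111030). Also lower were 3 of 8 smooth muscle, 4 of 8 endothelial and 3 of 7 white adipocyte markers. Sham 8 and sham 11 stood apart by airway and lung epithelium markers, with summed levels of 44801 and 3788.4, against at most 93.224 in the other libraries. The part of these cell types in the results below was not tested, other than by fits that leave libraries out or add the brown adipocyte score as a covariate. That score ran from 6.2732 to 9.6694 in cPTAA and from 9.6691 to 11.2994 in sham, so it nearly divided the groups. A fit with both can hardly tell group and score apart, and a call lost in it does not show which of them a gene follows. With that covariate the median SE of all tested genes went from 0.30 to 0.48, and 11 of the 26 rises and 1 of the 2 falls passed. The rises that passed were Il1b, Il1rn, Il6, Il23r, Il7r, Il21r, Il2ra, Il2rb, Il2rg, Il10ra and Il10rb, the fall was Il17re, and the adjusted p of the others ran from 0.0544 to 0.819.

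Among the ligands of the IL-1 family, Il1b, Il18 and Il33 rose, and the low-level Il1a and Il36g did not pass. Il1b encodes IL-1β, an inflammatory cytokine made mainly by myeloid cells as an inactive precursor. Its normalised read count was 25.3, 10.7, 8.15, 14.1 and 10.5 in sham 1, 5, 8, 10 and 11, and in cPTAA it ranged from 49.2 in library 7 to 381 in library 9, with a median of 148. The groups did not overlap, and the log2 fold change was 3.33 ± 0.43 (SE; limma adjusted p = 6.45e-05).

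Il18 encodes IL-18, which also needs cleavage and drives interferon-gamma production by lymphocytes. It measured 13.7, 19.5, 25.5, 8.68 and 15.1 in the sham libraries in the same order, against 46.7 to 101 in cPTAA (median 66.6). The groups did not overlap, and its spread among aneurysms was narrow beside that of Il1b. The log2 fold change was 2.10 ± 0.29 (limma adjusted p = 0.000108), and with the brown adipocyte covariate it was 1.86 ± 0.51 (adjusted p = 0.0544).

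Il33 encodes IL-33, a nuclear alarmin of stromal and endothelial cells. On a per-length scale it had the highest level of the ligands with a known length, at 489 normalised read counts per kilobase of exon in cPTAA and 174.5 in sham. Its normalised read count ranged from 306 to 666 in sham and from 842 to 2389 in cPTAA, without overlap (log2 fold change 1.42 ± 0.27, limma adjusted p = 0.00147). This call ended with the brown adipocyte covariate (log2 fold change 0.81 ± 0.44, adjusted p = 0.259).

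Il1a, which encodes IL-1α, stayed at 0.98 to 12.6 in cPTAA and 0.974 to 3.26 in sham, and the groups overlapped (limma adjusted p = 0.197). Il36g, an epithelial cytokine, ranged from 0 to 25.0 in cPTAA and from 0 to 5.09 in sham (adjusted p = 0.469). Il1bos, an antisense RNA that shares 25 exon bases with Il1b on the other strand, had 22 reads over the cPTAA libraries and 1 over the sham libraries, a ratio of 14.0 (95% exact interval 2.26 to 577, counting error only). It did not pass (limma adjusted p = 0.103; without cPTAA 6, 0.0491), and without a stated strand setting reads in the shared bases cannot be told apart.

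Il1rn and Il18bp, which restrain IL-1 and IL-18, rose. Il1rn encodes the IL-1 receptor antagonist, which occupies the receptor without signalling. It measured 38.0, 23.4, 22.4, 41.2 and 57.0 in the sham libraries and 74.4 to 355 in cPTAA (median 139), with no overlap (log2 fold change 2.29 ± 0.39, limma adjusted p = 0.000614). Il18bp, which encodes the soluble IL-18 binding protein, went from 99.3 ± 45.8 in sham (SD, n = 5) to 306 ± 196 in cPTAA (SD, n = 7), with overlapping groups (log2 fold change 1.48 ± 0.43, adjusted p = 0.0217). Without sham 8 its adjusted p was 0.0511 and without sham 10 it was 0.0676. The brown adipocyte covariate ended this call too (log2 fold change 1.997, adjusted p = 0.123). Il18bp also shares 80 exon bases with Numa1 on the opposite strand.

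Il1r2 encodes the decoy receptor that binds IL-1 and does not signal. Its normalised read count was 1.09 to 13.7 in sham and 2.90 to 90.2 in cPTAA, with the lowest aneurysm value in library 7. It missed the threshold (log2 fold change 2.08 ± 0.73, limma adjusted p = 0.0528), and it passed with edgeR, with DESeq2, without cPTAA 6 (adjusted p = 0.0473) and without cPTAA 7 (0.00536).

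Of the signalling receptor chains of the family, Il18rap rose and the other tested chains did not pass. This is 1 of 6 tested chains, near the share among all tested genes (12.9% higher). Il18rap, the accessory chain of the IL-18 receptor on T and NK cells, measured 24.2, 8.77, 14.3, 4.34 and 1.16 in the sham libraries and 34.8 to 93.2 in cPTAA (median 86.3). The groups did not overlap (log2 fold change 3.02 ± 0.52, limma adjusted p = 0.000653). Il1r1, the signalling IL-1 receptor, was 848 ± 81.2 in sham and 1429 ± 510 in cPTAA. Among the aneurysms, cPTAA 6 lay inside the sham range and cPTAA 9 below it (log2 fold change 0.66 ± 0.25, adjusted p = 0.0728), and the gene passed without cPTAA 6 (adjusted p = 0.0384) or without cPTAA 9 (0.00416). With all libraries Il1r1 passed with edgeR (adjusted p = 0.0381) and DESeq2 (0.0187), and not in limma with the brown adipocyte covariate (0.908). Il1rl1, the IL-33 receptor also called ST2, had log2 fold change 1.05 ± 0.46 (adjusted p = 0.119; without cPTAA 9, 0.0276), and gene-level values do not separate its membrane and soluble forms. Il1rap, the accessory chain that the IL-1 and IL-33 receptors share, was 200 ± 64.4 in sham and 263 ± 105 in cPTAA (adjusted p = 0.493).

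The 6 members Il1r2, Il1r1, Il1rl2, Il1rl1, Il18r1 and Il18rap, follow each other without another protein-coding gene between them on mouse chromosome 1 in the RefSeq annotation. All 6 had a positive log2 fold change, from 0.66 to 3.02, and 1 of the 6 passed, which is near the share among all tested genes (12.9% higher). The sign turned for 4 of the 6 under the brown adipocyte covariate, to -0.084 for Il1r1, -0.81 for Il1rl2, -0.52 for Il1rl1 and -0.66 for Il18r1. None of these 4 passed (adjusted p = 0.908, 0.277, 0.641 and 0.654), and the Il18rap call ended (2.38 ± 0.90, adjusted p = 0.124). Il18r1, the ligand-binding chain of the IL-18 receptor, was 342 in sham 8 and at most 35.1 in the other sham libraries, against 72.6 to 190 in cPTAA. With sham 8 its log2 fold change was 1.51 (limma adjusted p = 0.095), and without that library it was 2.30 (adjusted p = 0.000221). Il1rl2, the IL-36 receptor, changed likewise from 1.01 (adjusted p = 0.095) to 1.41 (adjusted p = 0.00932). Its level was 378, 219 and 201 in cPTAA 12, 2 and 3, against 90.2 to 115 in the other aneurysms. Summed stratified epithelium markers were also highest in these aneurysms, at 3327.4, 1245.4 and 1991.0, against 64.708 to 192.26 in the others. Their part in Il1rl2 was not tested.

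**Figure D2:**
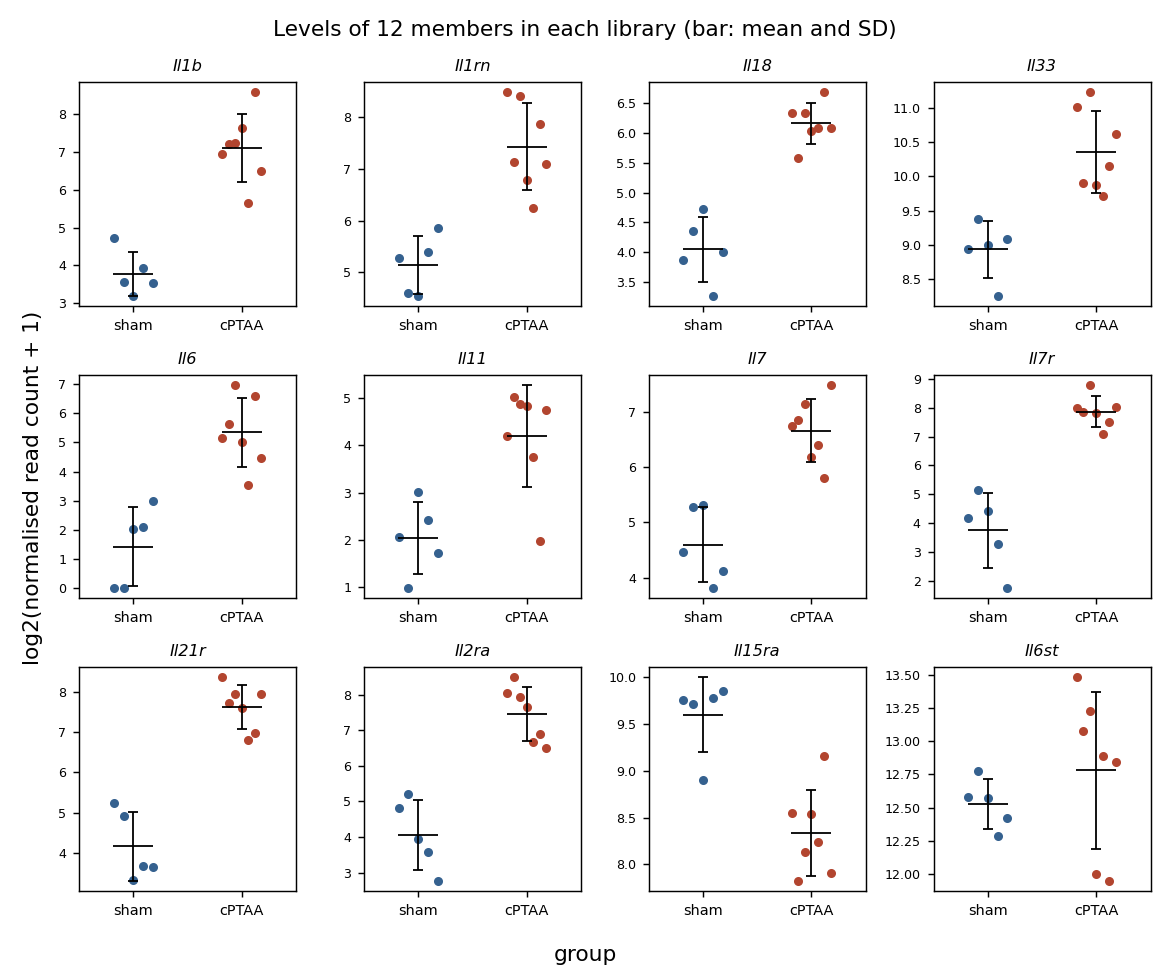
Points are libraries and bars are the mean and SD of log2(normalised read count + 1) for 12 members in sham (n = 5) and cPTAA (n = 7). The groups are apart for Il1b, Il1rn, Il18, Il33, Il6, Il7, Il7r, Il21r and Il2ra, overlap through 1 aneurysm for Il11 and through sham 8 and cPTAA 9 for Il15ra, and overlap widely for Il6st.

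In the IL-6 and IL-12 families 6 of 14 tested members rose, against 12.9% of all tested genes. Il6 encodes IL-6, a cytokine of the acute phase response. It had 0 reads in sham 1 and sham 5, measured 3.06, 3.26 and 6.98 in sham 8, 10 and 11, and ranged from 10.6 in cPTAA 7 to 124 in cPTAA 4, with a median of 34.5. The groups did not overlap, and the aneurysms themselves differed more than 10-fold (log2 fold change 3.92 ± 0.66, limma adjusted p = 0.0006).

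Il11 encodes IL-11, a gp130 cytokine studied in fibroblasts. It was 3.16, 0.974, 7.13, 4.34 and 2.33 in the sham libraries and 2.94 to 31.5 in cPTAA (median 25.8). Only cPTAA 9 lay inside the sham range (log2 fold change 2.16 ± 0.54, limma adjusted p = 0.00956). This call ended with the brown adipocyte covariate (adjusted p = 0.582).

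The receptor chains through which these cytokines act did not pass, and Il6st and Il11ra1 were abundant in both groups. Il6st had a normalised read count of 5940 ± 766 in sham (SD, n = 5) and 7520 ± 2745 in cPTAA (SD, n = 7; log2 fold change 0.25 ± 0.25, limma adjusted p = 0.513). Il6ra, the IL-6 binding chain, had log2 fold change 0.40 ± 0.33 (adjusted p = 0.428). Il11ra1, the IL-11 binding chain, was 3874 ± 243 in sham and 4173 ± 1237 in cPTAA (log2 fold change 0.05 ± 0.20, adjusted p = 0.876), and its reads may be shared with the near copy Il11ra2 (15.7 ± 10.1 in cPTAA and 10.7 ± 7.65 in sham). Per kilobase of exon, Il11ra1 (867 in sham) and Il6st (535) had the highest levels of all members in both groups. Cardiomyocyte markers summed to 20295, 24993 and 135450 in cPTAA 6, 7 and 9 and to at most 7267.5 elsewhere. Without these libraries and sham 8, Il6st and Il6ra passed as higher (log2 fold changes 0.64 and 1.09, adjusted p = 0.011 and 0.00366). Their signs turned with the brown adipocyte covariate (-0.22 and -1.0015, adjusted p = 0.77 and 0.123).

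On the IL-12 and IL-23 side, Il23r, the IL-23 receptor of T cells and innate lymphocytes, had 1 read in all 5 sham libraries together and 99 in the 7 aneurysms. The ratio was 63.0 with a 95% exact interval of 11 to 2510, which covers counting error only (limma adjusted p = 2.27e-05). Il12rb1, the chain shared by the IL-12 and IL-23 receptors, rose from 5.99 ± 2.75 to 29.7 ± 12.7 without overlap (log2 fold change 2.11 ± 0.38, adjusted p = 0.000896). Il27ra rose from 51.8 ± 16.7 to 133 ± 29.3, again without overlap (adjusted p = 0.000733). Among the ligands, Il12b, the shared p40 subunit, was called at low levels, at 9.41 ± 6.80 in cPTAA and 1.06 ± 1.51 in sham (adjusted p = 0.00694). The calls of Il12rb1, Il27ra and Il12b ended under the brown adipocyte covariate (log2 fold changes 1.93, 1.12 and 2.12, adjusted p = 0.103, 0.122 and 0.208). Il12a (adjusted p = 0.205) and Il27 (adjusted p = 0.0515) did not pass. Il27 did pass without any 1 of cPTAA 7, cPTAA 12, sham 1 or sham 11 (adjusted p from 0.0202 to 0.0474). Il12rb2, the IL-12 receptor chain of T and NK cells, and Il31ra, the IL-31 receptor chain, did not pass (adjusted p = 0.387 and 0.264), and Il23a was below the filter, with 18 reads in all, 11 of them in sham 8.

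All 9 receptor chains of the common gamma chain and type 2 cytokine group passed, 8 as higher and 1 as lower. Among all tested genes the shares were 12.9% and 11.1%. Il7r, the IL-7 receptor of T cells and innate lymphocytes, had the highest fold change of any member on the log2(value + 1) scale; as a ratio of means, Il6 (19.6) and Il23r (60.9, from 1 sham read) lay above it (15.0). It measured 16.9, 34.1, 20.4, 8.68 and 2.33 in the sham libraries and 134 to 443 in cPTAA (median 232). The groups did not overlap (log2 fold change 4.13 ± 0.47, limma adjusted p = 2.86e-05).

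Il2ra encodes CD25, the IL-2 receptor chain of activated and regulatory T cells. It was 27.4, 36.0, 14.3, 10.9 and 5.82 in the sham libraries and 90.5 to 359 in cPTAA (median 202), without overlap (log2 fold change 3.40 ± 0.45, limma adjusted p = 7.93e-05). Its highest aneurysm value was in cPTAA 3 and its highest sham values were in sham 5 and sham 1. Markers of immature T cells of the thymus summed to 1283.6 in cPTAA 3 (15.536 to 175.37 in the other aneurysms), 149.02 in sham 5 and 243.53 in sham 1 (2.1703 to 12.224 in the other sham libraries), and their part in Il2ra was not tested. Il2rb, shared by the IL-2 and IL-15 receptors, rose from 34.5 ± 15.8 to 182 ± 61.3 (log2 fold change 2.40 ± 0.30, adjusted p = 6.12e-05). Il2rg, the common gamma chain itself, rose from 79.8 ± 15.0 to 392 ± 105 (log2 fold change 2.25 ± 0.21, adjusted p = 6.87e-06). Neither of these overlapped between the groups.

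Il21r, the IL-21 receptor of lymphocytes, was 36.9, 29.2, 9.17, 11.9 and 11.6 in the sham libraries and 111 to 325 in cPTAA (median 209; log2 fold change 3.44 ± 0.37, limma adjusted p = 1.65e-05). Its neighbour on chromosome 7 is Il4ra, which encodes the chain that binds IL-4 and takes part in IL-13 signalling. Il4ra was already at 447 to 683 in sham and reached 1188 to 3033 in cPTAA (log2 fold change 1.76 ± 0.25, adjusted p = 0.000165). Both rose without overlap between the groups, and the Il4ra call ended with the brown adipocyte covariate (adjusted p = 0.127).

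Il13ra1, which pairs with Il4ra, rose from 567.5 ± 424 to 1166 ± 247 (log2 fold change 1.24 ± 0.29, limma adjusted p = 0.00638). The sham values were 383, 401, 1323, 318 and 412, so sham 8 alone lay inside the aneurysm range of 838 to 1451. Without sham 8 the log2 fold change was 1.60 (adjusted p = 2.85e-05), and with the brown adipocyte covariate it was 0.30 ± 0.42 (adjusted p = 0.679). Il13ra2, the decoy for IL-13, was 4.87 ± 2.50 in sham and 13.9 ± 7.42 in cPTAA (limma adjusted p = 0.0811, and 0.0145 without cPTAA 9). With all libraries Il13ra2 passed with edgeR (adjusted p = 0.0427) and DESeq2 (0.0391), and not in limma with the brown adipocyte covariate (0.817). Il9r, the IL-9 receptor, was highest in 1 library, with 80.3 in cPTAA 12 and 0.863 to 14.5 in the other aneurysms (log2 fold change 2.53 ± 0.75, adjusted p = 0.0229), and the call ended without sham 1 or without sham 10 (highest adjusted p 0.0669). It ended too with the brown adipocyte covariate (log2 fold change 0.48 ± 1.16, adjusted p = 0.819). cPTAA 12 also had the highest summed B cell markers, 3630.2 against 154.49 to 871.93 in the other aneurysms.

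Il15ra was the exception among these receptors. It encodes the chain that presents IL-15 to neighbouring cells, and its sham values were 862, 841, 476, 879 and 926. In cPTAA it ranged from 226 to 571 (median 301), so the groups overlapped only through sham 8 and cPTAA 9 (log2 fold change -1.27 ± 0.23, limma adjusted p = 0.00105). Sham 8 had the lowest summed brown adipocyte level of the sham libraries (35875) and cPTAA 9 the highest of the aneurysms (46936). Among other aneurysms, Il15ra was 226 in cPTAA 3 (summed level 20427), 373 in cPTAA 2 (8404) and 239 in cPTAA 12 (2139.5). The part of brown adipocytes in Il15ra was not tested other than by the covariate fit. With the brown adipocyte covariate the log2 fold change was -0.52 ± 0.33 (adjusted p = 0.332).

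Of the ligands for these receptors, Il7 rose and Il15, Il2 and Il4 did not pass. Il7, a stromal survival factor for lymphocytes, was 21.1, 38.0, 38.7, 13.0 and 16.3 in the sham libraries and 54.9 to 178 in cPTAA (median 106), without overlap (log2 fold change 2.06 ± 0.35, limma adjusted p = 0.000572). The Il7 call ended with the brown adipocyte covariate (log2 fold change 0.78 ± 0.46, adjusted p = 0.295). Il15 was 70.3 ± 15.4 in sham and 122 ± 63.7 in cPTAA (adjusted p = 0.105). Il2, the T cell growth factor, was 2.57 ± 3.99 in sham and 2.58 ± 2.08 in cPTAA (adjusted p = 0.739). Il4 was 48.0 ± 22.2 and 45.1 ± 14.3 (adjusted p = 0.915), while Il13 had 2 reads and Il21 had 9 reads over all 12 libraries.

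In the IL-10 family Il10ra and Il10rb, the chains of the IL-10 receptor, both rose. Il10ra, the leukocyte chain that binds IL-10, was 125, 131, 63.2, 67.3 and 46.6 in the sham libraries and 406 to 1167 in cPTAA (median 700), with log2 fold change 3.13 ± 0.28 (limma adjusted p = 5.45e-06). Il10rb, which many cell types express, went from 390 ± 24.2 to 672 ± 147 (log2 fold change 0.76 ± 0.15, adjusted p = 0.00157). Il10 itself, a cytokine that restrains inflammation, was 3.32 ± 4.81 in sham and 14.3 ± 7.78 in cPTAA. It was at 0 in cPTAA 3 and did not pass (adjusted p = 0.0859), and without that library (adjusted p = 0.00836) or without sham 1 (0.0369) it passed. Il20ra, Il20rb and Il22ra2, receptor chains and a soluble decoy of the IL-20 and IL-22 branch, did not pass (adjusted p from 0.254 to 0.733).

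In the IL-17 family 1 of 8 tested members rose and 1 fell, which is near the shares among all tested genes (12.9% and 11.1%). Il17ra, the chain shared by the receptors of this family, rose from 145 ± 23.8 to 394 ± 131 without overlap (log2 fold change 1.39 ± 0.21, limma adjusted p = 0.000295), and the call ended with the brown adipocyte covariate (adjusted p = 0.192). Il17re, the IL-17C receptor chain of epithelial cells, fell by 1.08 on the log2 scale (SE 0.34, adjusted p = 0.0307). Its highest value was 166 in sham 8, and without that library the adjusted p was 0.0778. The call also ended without any 1 of cPTAA 2, 3, 4 or 6 or of sham 1 or 5 (adjusted p from 0.0534 to 0.0579), with log2 fold changes of -0.99 to -1.10. Il17rc, Il17rd, Il17rb and the ligands Il17b, Il17c and Il17d did not pass (adjusted p from 0.0772 to 0.994), although Il17b passed as lower without cPTAA 7 (0.0384), while Il17a and Il17f had 3 reads each over all 12 libraries.

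Of the remaining members, Il3ra, the IL-3 receptor chain, rose from 91.6 ± 31.2 to 272 ± 128 (log2 fold change 1.498 ± 0.30, limma adjusted p = 0.00226). Il16, a chemoattractant for CD4-bearing cells, rose from 246 ± 41.0 to 472 ± 77.8 (log2 fold change 0.94 ± 0.15, adjusted p = 0.000344), and it shares 1368 exon bases with genes on the opposite strand, Stard5 among them. Both were lost with the brown adipocyte covariate (adjusted p = 0.353 and 0.166). Il34, a ligand of the CSF-1 receptor, did not pass (adjusted p = 0.161). Il5ra, the IL-5 receptor chain of eosinophils, was 0.836 ± 1.37 in sham and 7.55 ± 11.2 in cPTAA, with its highest value, 32.3, in cPTAA 12 (adjusted p = 0.114; without cPTAA 6, 0.0423). Il4i1, an amino acid oxidase, was near 1 read in both groups (adjusted p = 0.832), and most of its exon bases overlap Atf5 and Tbc1d17 on the opposite strand. The 11 members below the filter were Il5, Il13, Il17a, Il17f, Il19, Il21, Il22ra1, Il23a, Il25, Il1rapl1 and Il1rapl2.

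**Figure D3:**
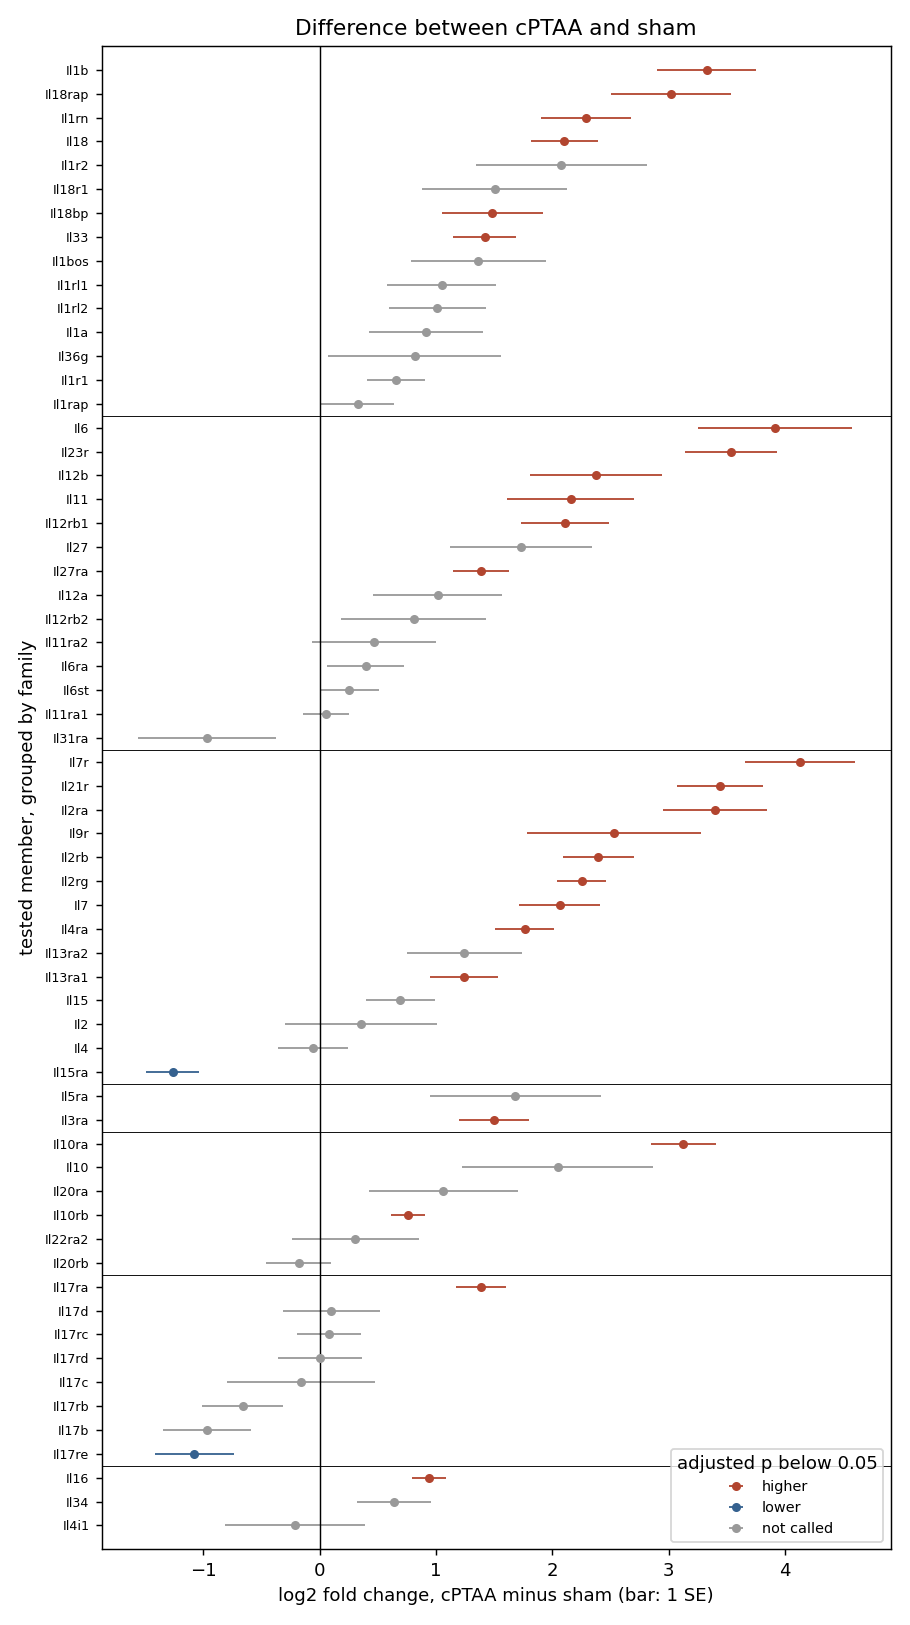
Points are log2 fold changes of cPTAA minus sham for the 62 tested members, bars are 1 SE, and horizontal lines separate the families; colour marks an adjusted p below 0.05. Il7r is the highest at 4.13, and the points in blue are Il15ra at -1.27 and Il17re at -1.08.

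The aneurysms were not alike. Of the 26 rises, 9 had their highest aneurysm value in cPTAA 12, 6 in cPTAA 2, 5 in cPTAA 9, 3 each in cPTAA 3 and cPTAA 4, and 0 in cPTAA 6 and cPTAA 7. The lowest aneurysm value was in cPTAA 7 for 17 of the 26. That library also had the lowest summed macrophage marker level of the aneurysms, 35502 against 52849 to 65562 in the others, and cPTAA 12 had the highest B cell marker level; the part of these in the order was not tested.

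Ratios within a library compare a chain or antagonist with its partner and were tested with two-sided exact permutation tests (792 arrangements, smallest possible p 0.00126), with p adjusted over 6 ratios. The log2 ratio of Il10ra to Il10rb was -2.27 ± 0.61 in sham (SD, n = 5) and 0.10 ± 0.51 in cPTAA (SD, n = 7), a difference of 2.37 with no overlap (exact permutation p = 0.00126, adjusted p = 0.00758). The ratio of Il1rn to Il1b was 1.36 ± 0.65 in sham and 0.32 ± 0.91 in cPTAA (difference -1.04, exact permutation p = 0.0619, adjusted p = 0.186). The other 4 ratios did not pass. The difference was 1.42 for Il1r2 to Il1r1 (exact adjusted p = 0.275), -0.62 for Il18bp to Il18 (0.324), 0.14 for Il6ra to Il6st (0.818) and 0.0072 for Il13ra2 to Il13ra1 (0.991). Without cPTAA 7 the difference for Il1r2 to Il1r1 was 1.92 (exact adjusted p = 0.026).

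**Figure D4:**
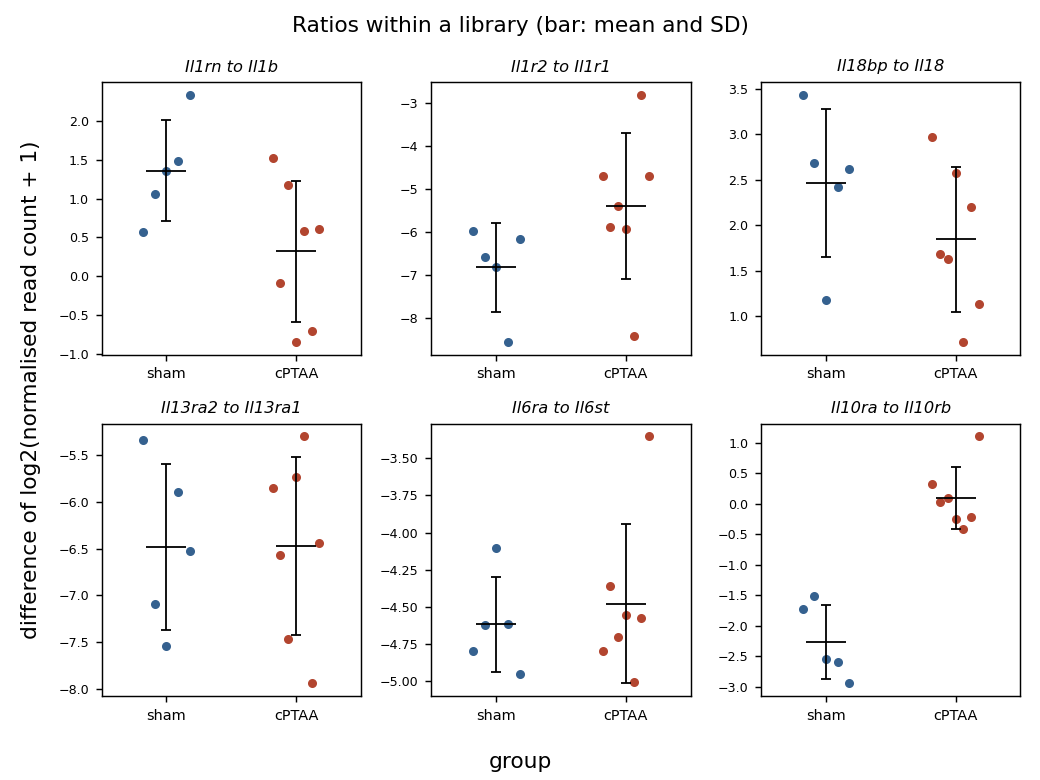
Points are libraries and bars are the mean and SD of the difference of log2(normalised read count + 1) between 2 members, for 6 ratios in sham (n = 5) and cPTAA (n = 7). The groups are apart for Il10ra to Il10rb and overlap in the other 5 panels.

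Across the 7 aneurysms, 3 relations between log2 levels were computed, and none of the 3 passed. Il1b and Il1rn had Pearson r = 0.47 (exact permutation p = 0.296, adjusted 0.443) and Spearman rho = 0.32 (exact p = 0.498, adjusted 0.662), and r was -0.15 without the 2 libraries farthest from the median. Il6 and Il11 had r = -0.17 (exact permutation p = 0.714, adjusted 0.714) and rho = 0.29 (exact p = 0.556, adjusted 0.662), and r was -0.80 without 2 libraries. Il1b and the macrophage marker score had r = 0.52 (exact permutation p = 0.245, adjusted 0.443) and rho = 0.21 (exact p = 0.662, adjusted 0.662), and r was -0.45 without 2 libraries.

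Genes that work with the interleukins were counted in 8 lists holding 77 genes, of which 74 were tested, 40 rose and 3 fell, with a median log2 fold change of 0.70. These counts stand against 12.9% higher and 11.1% lower among all tested genes. All 7 genes for the maturation of IL-1β and IL-18 rose. Pycard, the inflammasome adaptor, had log2 fold change 2.06 ± 0.23, Casp4 1.61 ± 0.18 and the DNA sensor Aim2 3.26 ± 0.47 (limma adjusted p = 2.59e-05, 2.7e-05 and 0.000176). Of 13 genes for IL-1 and Toll-like receptor signalling, 3 rose: the adaptor Myd88 (0.69 ± 0.15), the NF-kB subunit gene Nfkb1 (0.50 ± 0.14) and the kinase gene Irak4 (0.61 ± 0.17).

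Among 9 tested partners of the gp130 family, 5 rose and 1 fell. The rises included Osm, which encodes the cytokine oncostatin M (2.53 ± 1.38 in sham and 31.3 ± 11.3 in cPTAA), its receptor chain gene Osmr, and Ebi3 and Lif. Cntfr, a receptor chain for ciliary neurotrophic factor, fell by 2.04 on the log2 scale (SE 0.37, limma adjusted p = 0.0011). All 7 tested partners among other cytokine and growth factor receptors and their ligands rose, with the smallest p for Csf1r, Csf1 and Csf2ra. Csf1r encodes the receptor for CSF-1 and IL-34 and is also a macrophage gene.

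Downstream of the receptors, 4 of 11 JAK and STAT genes rose (Stat4, Tyk2, Jak1 and Stat3) and Stat5a fell. Of 8 SOCS feedback inhibitors, 1 rose and 1 fell, which is near the shares among all tested genes (12.9% and 11.1%). Socs3 rose (log2 fold change 1.98 ± 0.31, limma adjusted p = 0.000322). Cish, which STAT5 is known to induce, fell by 1.57 (SE 0.46, adjusted p = 0.0214). Of 10 genes known to respond to IL-4 and IL-13, 7 rose, with the smallest p for Ccl17, Ccl22 and Arg1 (log2 fold changes 3.64, 3.27 and 4.31). Of 11 tested genes known to respond to IL-1, IL-6 or IL-17, 7 rose, with the smallest p for Ccl2, Lcn2 and Cxcl2 (4.06, 3.84 and 3.75). With the brown adipocyte covariate, 13 of the pathway genes were called higher, and the falls of Cntfr, Stat5a and Cish lost their call (log2 fold changes -2.22, -0.36 and -0.95, adjusted p = 0.0702, 0.409 and 0.466).

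Several members were highest in sham 8, the library with the most airway and lung epithelium marker RNA. Sham 8 also had the highest summed mesothelial markers (7144.2, against 672.78 to 1113.8 in the other sham libraries). Its summed stratified epithelium markers were the highest too (5563.2), against at most 307.26 in the other sham libraries and 64.708 to 3327.4 in cPTAA. The part of any of these tissues was not tested. Beside Il18r1, Il1rl2, Il13ra1 and Il17re, the members at 10 or more in sham 8 and at least 2-fold above the next sham library were Il22ra1, at 33.6 there and 0 in the other sham libraries, Il23a, at 11.2 against 0.974, and Il4, at 87.6 against 41.2. Below that floor, Il25 was at 4.07 against 1.09. Il22ra1, the IL-22 receptor chain of epithelial cells, was at most 4.32 in cPTAA. Sham 11 had the second highest airway and lung epithelium marker sum, 3788.4 against 44801 in sham 8. It did not stand out for these genes, and what its much lower sum would add to them was not tested.

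**Figure D5:**
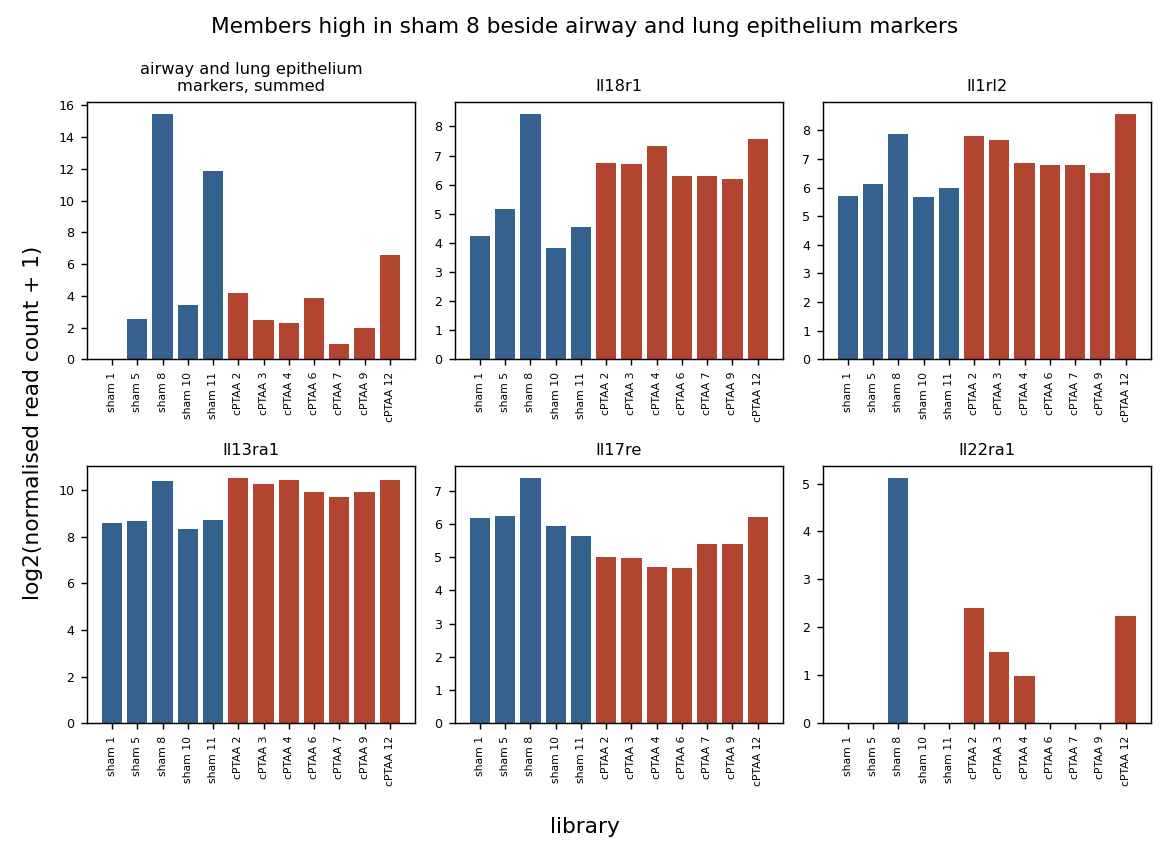
Bars are log2(normalised read count + 1) in each library, blue for sham and red for cPTAA, for the summed airway and lung epithelium markers and 5 members. Sham 8 has the highest marker sum (44801) and the highest sham value of Il18r1, Il1rl2, Il13ra1, Il17re and Il22ra1.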

How the data were processed

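Per the labels' protocols, messenger RNA of 12 aneurysms or aortas was pulled down with oligo-dT beads before library preparation. The submitters' processing notes name GRCm39, the aligner HISAT2 (2.0.5), the counter featureCounts (1.5.0-p3) and StringTie. What StringTie did, the strand setting, the scaling and the filters are not given in the sources used here. The deposited signal is never negative and, checked on the values, equals whole reads divided by 1 factor per library (100% whole within 0.02 reads). Recovered totals were 14078885 to 17493428 reads. Groups came from the sample titles.

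Genes reaching a value of 1 in 5 libraries were fitted on log2(value + 1) with limma (3.58.1, under R 4.3.3) and its trend option. P-values were adjusted over all fitted genes by Benjamini-Hochberg, and calls needed an adjusted p below 0.05. This scale understates the change of low genes. Alternatives were edgeR 4.0.16 and DESeq2 1.42.0 on recovered reads, other scalings, filters and a pseudocount of 0.1, sample weights, a brown adipocyte covariate and left-out libraries.

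Members and lists were chosen with earlier results of these data known. The rule for named genes took the 8 largest called rises and falls whose higher group averaged 10 or more, and a panel of members; per pathway list it took the 3 genes with the smallest p and all genes of a direction with 5 or fewer. Other members are named to account for each of the 73. The result of 1 pathway gene that the rule names is not reported here. The lists for airway and lung epithelium, stratified epithelium and immature T cells of the thymus, and the fit without sham 8 and sham 11 were chosen after seeing the data. Lengths, exon overlaps and biotypes came by symbol from GENCODE M21, which matched 72 of the 73 members; it is of another build than the files. RefSeq promoters (GRCm38.p6) were matched by symbol for 57 members. Chromosome 18, which carries Il17b, was left out of the member shares of motifs and kept in the shares over all promoters.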

Additional observations from a re-analysis of the deposited data

Results flagged for a closer look

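In 80 groups of library values examined, 8 held a library whose distance to its nearest neighbour was large against the group's range; chance gives about 1 such group in 20. Among the sham libraries, sham 8 stood apart for Il13ra1 (1323), Il15ra (476) and Il15 (43.8), and sham 10 for Il23r (1.09, which is 1 read, with the others at 0). Among the aneurysms, cPTAA 3 stood apart for Il10 (0.0), cPTAA 9 for Il11 (2.94) and cPTAA 12 for Il16 (637). The log2 ratio of Il6ra to Il6st stood apart in cPTAA 12 (-3.35).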

How the results depend on the processing

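Of the 28 called members, 11 kept their call under every alternative run. edgeR kept 27 of the 27 for which it gave a value, DESeq2 28, TMM scaling 28, scaling to library totals 27, a pseudocount of 0.1 28, no filter 28, a filter at 10 26 of 26, sample weights 28, the fit without cPTAA 6, 7 and 9 and sham 8 25, the fit without sham 8 and sham 11 26 and the brown adipocyte covariate 12. The median log2 fold change of the 26 rises was 2.21, and 1.96 with that covariate. None of the 16 calls lost with the covariate, whose score nearly divided the groups, turned in sign (0 of 16). No paired analysis was possible because the groups share no replicate number.

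With the brown adipocyte covariate 576 genes were called higher and 312 lower, with 11 members higher and 1 lower, and 13 pathway genes higher and 0 lower by limma (6 lower at an unadjusted p below 0.05). The fit without sham 8 and sham 11 called 1574 genes lower and 1 member lower, and scaling to library totals called 1 member lower. Leaving out each library in turn gave 24 to 30 members higher and 1 to 3 lower. The log2 ratio of Il10ra to Il10rb differed by 2.59 (exact adjusted p = 0.0857) without cPTAA 6, 7 and 9 and sham 8 and by 2.05 (exact adjusted p = 0.05) without sham 8 and sham 11, with 70 and 120 arrangements of the libraries. In both fits the unadjusted exact p of this ratio was the smallest that so few arrangements allow. Il13ra2 to Il13ra1 differed by -0.0061 with library totals, -0.37 without the 4 libraries, -0.36 without sham 8 and sham 11, and -0.26 to 0.29 leaving out 1 library. Leaving out 1 library gave 0.98 to 1.92 for Il1r2 to Il1r1 and -0.047 to 0.27 for Il6ra to Il6st. Without the 2 farthest libraries r was -0.15 for Il1b with Il1rn and -0.45 for Il1b with the macrophage score.

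Changes of sign were otherwise seen in members that had not passed. With the brown adipocyte covariate the log2 fold change was 0.16 for Il17b, -0.36 for Il17d, -0.46 for Il17rc, -1.02 for Il17rd, -0.66 for Il18r1, -0.084 for Il1r1, -0.59 for Il1rap, -0.52 for Il1rl1, -0.81 for Il1rl2, -0.89 for Il20ra, -1.13 for Il22ra2, -0.40 for Il5ra, -1.0015 for Il6ra and -0.22 for Il6st. It was -0.12 for Il17d with edgeR, and -0.11 for Il17d, 0.77 for Il17c and 0.10 for Il4i1 with DESeq2. Without cPTAA 6, 7 and 9 and sham 8 it was -0.24 for Il11ra1, -0.036 for Il11ra2, 0.55 for Il17c, 0.23 for Il4 and 0.074 for Il4i1. Without sham 8 and sham 11 it was -0.055 for Il17rd, 0.18 for Il4 and 0.05 for Il4i1. Sample weights gave -0.0503 for Il11ra1, 0.17 for Il4 and 0.14 for Il4i1, and library totals 0.0628 for Il4. Leaving out 1 library gave -0.044 to 0.16 for Il11ra1, -0.50 to 0.0066 for Il17c, -0.23 to 0.38 for Il17d, -0.16 to 0.24 for Il17rc, -0.12 to 0.28 for Il17rd, -0.022 to 0.60 for Il22ra2 and -0.16 to 0.18 for Il4. The cause was not tested.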
